A study of Mus musculus with 8 samples.

Results

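The genes described here are those of the integrated stress response and of the amino acid supply it serves, followed in mouse embryos with lowered Ott1. They are a set of 36 genes in 7 roles (eIF2 kinases and the eIF2 cycle, transcription factors of the ATF4 pathway, stress effectors, serine and one-carbon synthesis, other amino acid synthesis, amino acid transport and tRNA charging), each taken through the RefSeq transcript accession of its array probe. The set was chosen with earlier results of these data known, so its counts beside the shares of all probes are descriptions and not tests. Of the 36 genes, 31 had a matched probe, out of 13971 genes matched on the array, and Phgdh had 2 probes. The other 5, Cebpg, Trib3, Pycr1, Slc7a11 and Eprs, were not analysed here. Of the 31 measured genes, 28 were tested, those whose probe exceeded background on each array of 1 genotype or more. Nupr1, Slc7a5 and Slc7a1 did not pass that filter.

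Ott1, now named Rbm15, encodes a Spen-family protein that binds RNA and acts in its methylation, splicing and export. Parents carried an Ott1 allele with low expression, and their whole embryos at E11.5 were genotyped and read on one-colour CodeLink arrays, 1 embryo per array. The 8 embryos were 2 wild-type (embryos 11 and 13), 3 heterozygous (embryos 3, 10 and 15) and 3 homozygous for the allele (embryos 2, 7 and 16). The labels name no tissue-specific driver, strain, sex or litter, and each array mixed RNA of all tissues. No probe was matched to Rbm15, so the drop in its own transcript could not be checked.

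The integrated stress response begins with kinases that sense amino acid shortage, unfolded protein in the endoplasmic reticulum, viral RNA or heme shortage and phosphorylate the alpha subunit of the initiation factor eIF2. General translation then slows while the mRNA of the transcription factor ATF4 is translated more efficiently. ATF4, with C/EBP partners, drives genes that make, import and charge amino acids, together with stress effectors such as Ddit3 (CHOP) and Chac1. Because much of this control acts on translation and on protein phosphorylation, transcript levels report only part of it.

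C/EBP-ATF composite elements, the sites that ATF4 dimers bind, share the letters TGATGNAA, or TTNCATCA when read on the opposite strand. RefSeq promoter windows of the mouse assembly GRCm38.p6, from 250 bases before to 50 after a start, were searched for these letters on both strands. They were present in 3.97% of all 32851 windows (1304), and in 11 of the 37 windows of the set (29.7%). Of the 32 genes of the set with a window, 11 held a match: Atf3, Nupr1, Trib3, Chac1, Vldlr, Asns, Pycr1, Slc7a11, Aars, Gars and Iars. Among the genes with the smallest unadjusted p between homozygous and other embryos, Chac1, Vldlr, Asns and Iars held a match. The match of Iars began after the start. The stretches below are those of Chac1, Vldlr and Asns, whose match began before it. Each is written 5′ to 3′ on the strand of its gene, with the match in capitals.
Chac1, chr2:119350992-119351116, plus strand: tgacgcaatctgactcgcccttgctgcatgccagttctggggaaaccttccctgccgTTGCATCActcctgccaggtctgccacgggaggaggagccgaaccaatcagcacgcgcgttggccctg
Vldlr, chr19:27216809-27216838, plus strand: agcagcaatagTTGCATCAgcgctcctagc
Asns, chr6:7693210-7693292, minus strand: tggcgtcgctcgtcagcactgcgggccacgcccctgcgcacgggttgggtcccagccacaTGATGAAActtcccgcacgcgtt
The match began 193 bases before the start in Chac1, 200 before the start of 1 of its 2 windows in Vldlr and 23 before the start in Asns. In Chac1 and Vldlr the matched letters were the same, TTGCATCA. Of the genes with the smallest unadjusted p, Shmt2, Sesn2, Ddit3, Ddit4, Cebpb, Slc3a2, Atf5, Aldh18a1 and Atf4 had a window without these letters. Cth, also among them, had no window. Whether a match goes with a larger difference was not tested. A match is a run of letters, not a measured binding site.

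In homozygous embryos the stress effectors had the highest median of the 7 roles. Vldlr, Ddit4, Sesn2 and Stc2 were higher by 1.16, 0.85, 0.73 and 0.44 on the log2 scale than in the 5 other embryos, Stc2 through embryo 16 alone. The fifth effector, Chac1, was at least 3.97-fold higher, a bound because it lay at background in those 5 embryos. Of the other roles, Ddit3 and Shmt2 were higher by 0.70 and 0.61. The eIF2 kinases, eIF2 alpha itself and most tRNA synthetases differed by at most 0.22 in either direction, apart from Iars at 0.27. No gene of the set passed the test across all probes (limma, Benjamini-Hochberg adjusted p under 0.05), so none is called changed: the smallest adjusted p was 0.137, for Chac1. Chac1 passed the filter on dim probes only through the homozygous arrays, where it was above background, so it had to differ. In the same comparison 0.107% of the 23388 probes tested passed. At an unadjusted p under 0.05, 9 of the 28 tested genes were higher in homozygous embryos (Chac1, Shmt2, Vldlr, Sesn2, Ddit3, Ddit4, Cebpb, Slc3a2 and Iars) and 0 were lower, against 6.63% of all probes higher and 13.4% lower. Among genes above background on all 8 arrays, which leaves out Chac1 and Atf3, 8 of 26 were higher at that level, against 7.06% of probes.

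Embryo 16 stood apart from the other homozygous embryos. Its array had a median intensity of 84.5, against 60.03 and 61.87 in homozygous embryos 2 and 7 and 48.4 to 57.8 in the 5 others. It had 26619 probes above background against 22526 to 23721 elsewhere, and 1634 gene spots marked by the scanner software against 206 to 616. Log2 values of array pairs correlated at 0.956 to 0.968 with embryo 16 and at 0.973 to 0.990 among the rest. All 3 homozygous arrays were brighter than the 5 others, so array brightness and homozygosity cannot be told apart. Results are therefore given with and without embryo 16. Of the 27 tested genes read on all 8 arrays, 20 were highest in embryo 16, where 16.7% of all tested probes were. Without it, 5 of 28 genes were higher at an unadjusted p under 0.05 (Chac1, Shmt2, Vldlr, Sesn2 and Ddit3; 6.25% of all probes) and 2 were lower (Ppp1r15a and Nars; 9.35% of all probes). Chac1 entered this count, too, through the homozygous arrays alone. Again 0 passed the adjusted threshold, which 0.115% of probes did, and the smallest adjusted p was 0.0980, for Chac1 (limma).

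The median difference of the 28 tested genes was 0.27, and that of all tested probes was -0.06. Without embryo 16 these medians were 0.09 and -0.03. The sign of the set's median depended on the scaling. After cyclic loess it was 0.28 against -0.01 for all probes, but after scaling each array to its median it was -0.06 against -0.22, and in the deposited value table -0.09 against -0.25. The count of the 28 genes above the median of all probes was 22 in the quantile-normalized values, 21 after cyclic loess and 18 in each of the other scalings. Chac1, Vldlr, Sesn2, Ddit3, Ddit4, Shmt2, Cebpb and Slc3a2 stayed positive under all 4, as did Stc2, Aldh18a1, Asns, Cth and Atf5. Iars, Atf4, Aars, Gars, Mthfd2, Psat1, Psph and Eif2ak4 were positive after quantile and loess normalization and negative in the others.

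**Figure D1:**
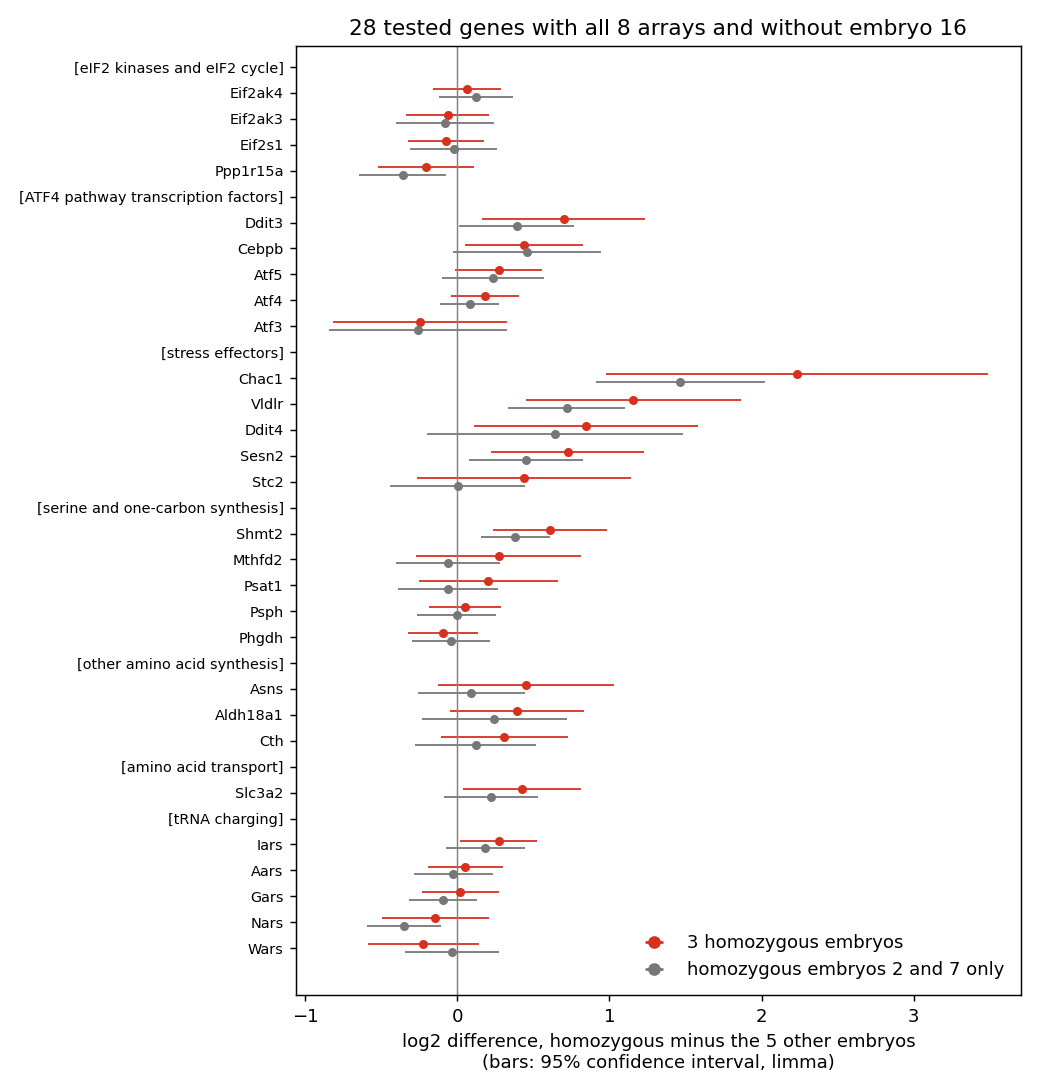
Homozygous minus other embryos, as a log2 difference, is plotted for the 28 tested genes, grouped by role, with 95% confidence intervals from limma. Red points use all 3 homozygous embryos and grey points embryos 2 and 7; Vldlr is at 1.16 and 0.72, and Asns moves from 0.45 to 0.09. Chac1 lay at background in the 5 other embryos, so its points are no measured difference.

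Values per embryo are log2 intensities after quantile normalization, listed as wild-type embryos 11 and 13, then heterozygous 3, 10 and 15, then homozygous 2, 7 and 16. They compare embryos for a given probe and do not rank genes against each other. Differences are homozygous minus the mean of the 5 others, with the standard error (SE) of the limma fit.

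In the eIF2 cycle, 0 of 4 genes had an unadjusted p under 0.05 in this comparison. Eif2ak3 (PERK, the kinase that senses unfolded protein in the endoplasmic reticulum) differed by -0.06 (SE 0.12), and Eif2ak4 (GCN2, the kinase that senses uncharged tRNA) by 0.06 (SE 0.10). Eif2s1, which encodes eIF2 alpha, differed by -0.07 (SE 0.11; 95% confidence interval -0.32 to 0.18). Ppp1r15a (GADD34) recruits the phosphatase that ends the response. Its level was 8.63 and 8.45 in wild-type, 8.36, 8.58 and 8.31 in heterozygous and 8.21, 8.01 and 8.55 in homozygous embryos. Homozygous embryos 2 and 7 lay below all 5 others, and embryo 16 did not. The difference was -0.21 (SE 0.14; limma adjusted p = 0.423), and -0.36 (SE 0.12; adjusted p = 0.267) without embryo 16. The median of the 4 genes was -0.07, and -0.34 under median scaling, where all 4 were negative. The median of all probes there was -0.22, and 1 of the 4 genes lay above it.

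The transcription factors of the pathway differed among themselves. Atf4, the master factor, is controlled largely by translation. Its level was 13.10 and 13.07 in wild-type, 13.02, 13.05 and 13.01 in heterozygous and 13.16, 13.11 and 13.44 in homozygous embryos. The 3 homozygous values lay above all 5 others, with embryo 7 just above wild-type embryo 11. The difference was 0.18 (SE 0.10; limma adjusted p = 0.317), and 0.08 (SE 0.08) without embryo 16. Under median scaling it turned to -0.21, close to the median of all probes there (-0.22). Ddit3, which encodes the pro-apoptotic factor CHOP, read 9.47 and 9.16, then 9.41, 8.95 and 9.49, then 9.64, 9.73 and 10.62. Again the homozygous embryos did not overlap the others, with embryo 16 the highest. Ddit3 was 1.62-fold higher in homozygous embryos (log2 difference 0.70, SE 0.23; limma adjusted p = 0.183), with a difference of 0.39 (SE 0.16; adjusted p = 0.312) without embryo 16.

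Cebpb, a C/EBP partner of ATF4, read 6.20 and 6.27, then 5.87, 5.97 and 5.70, then 6.72, 6.15 and 6.45. Here the heterozygous embryos were the lowest group, homozygous embryo 7 lay below both wild-type embryos, and embryo 2 was the highest. The difference from the 5 others was 0.44 (SE 0.17; limma adjusted p = 0.210), as large without embryo 16 (0.46, SE 0.21; adjusted p = 0.340). Atf5, an ATF4 relative induced in the same response, read 8.64 and 8.67, then 8.48, 8.27 and 8.75, then 8.88, 8.71 and 8.92. Homozygous embryo 7 overlapped heterozygous embryo 15, and the difference was 0.27 (SE 0.13; adjusted p = 0.266), or 0.23 without embryo 16. Atf3, a stress-induced repressor and activator, was read in 7 embryos only, since its spot on the array of embryo 16 was marked, and the fit used those 7. Its mean was 5.44 ± 0.41 (SD, n = 2) in wild-type, 5.97 ± 0.19 (SD, n = 3) in heterozygous and 5.51 ± 0.05 (SD, n = 2) in homozygous embryos.

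The stress effectors had the largest differences. Chac1 encodes an enzyme that degrades glutathione and is one of the most inducible targets of the ATF4 and CHOP axis. Its level was 4.15 and 4.40 in wild-type, 3.70, 4.37 and 4.50 in heterozygous and 5.85, 5.37 and 8.15 in homozygous embryos. Chac1 was above background on all 3 homozygous arrays and on 0 of the 5 others, and embryo 16 exceeded embryo 2, the next highest, by 2.30. A fold against values at background is only a bound. It is set against the higher of the probe's own value and the lowest signal called above background on each array. The bound depends on that limit and leaves out the spread among embryos. Chac1 was at least 3.97-fold higher in homozygous than in the 5 other embryos (limma adjusted p = 0.137), and at least 2.21-fold higher without embryo 16 (adjusted p = 0.0980).

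Vldlr, a lipoprotein and reelin receptor known to be induced by ATF4 and by low oxygen, read 7.00 and 6.86, then 6.90, 7.12 and 6.74, then 7.36, 7.89 and 8.995. All 3 homozygous embryos lay above all 5 others. It was 2.23-fold higher (log2 difference 1.16, SE 0.31; limma adjusted p = 0.142), with a difference of 0.72 (SE 0.16; adjusted p = 0.183) without embryo 16. Sesn2, a leucine sensor that restrains mTORC1, read 6.42 and 6.21, then 6.29, 6.76 and 6.34, then 6.93, 6.74 and 7.71. Heterozygous embryo 10 and homozygous embryo 7 overlapped, and the other homozygous embryos lay higher. Sesn2 was 1.65-fold higher (log2 difference 0.73, SE 0.22; adjusted p = 0.168), with 0.45 (SE 0.16; adjusted p = 0.272) without embryo 16.

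Ddit4 (REDD1) also restrains mTORC1 and is known to respond to low oxygen as well as to ATF4. It read 6.71 and 7.23, then 6.59, 6.24 and 7.08, then 7.97, 6.82 and 8.06. Embryos 2 and 16 lay above all others and embryo 7 among them, so the groups overlapped. The difference was 0.85 (SE 0.32; limma adjusted p = 0.208), and 0.64 (SE 0.36; adjusted p = 0.414) without embryo 16. Stc2, a secreted glycoprotein also induced by both stresses, was at 8.04 in embryo 16 and between 6.43 and 7.02 in the other 7. Its difference of 0.44 (SE 0.31; adjusted p = 0.436) was 0.0044 (SE 0.19) without embryo 16.

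**Figure D2:**
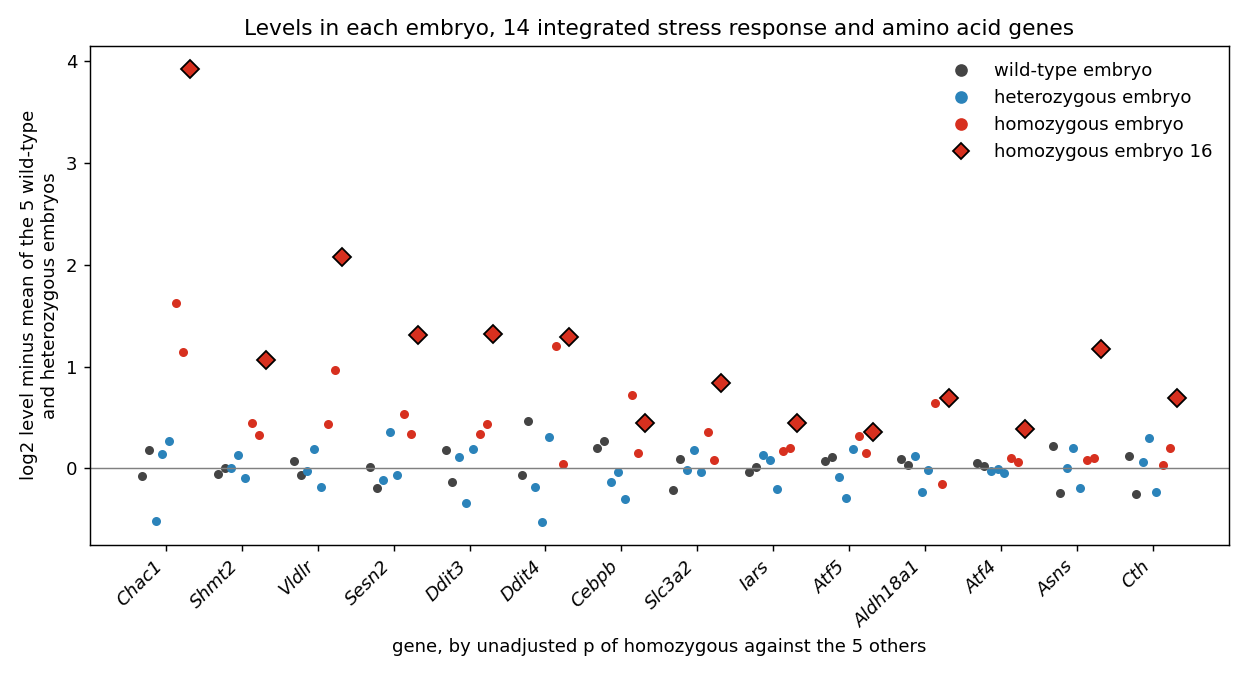
The log2 level of each of the 14 genes with the smallest unadjusted p is plotted for every embryo as its deviation from the mean of the 5 wild-type and heterozygous embryos; the diamond marks homozygous embryo 16. Embryo 16 is the highest point for 13 of the 14 genes, and for Cebpb it is embryo 2.

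Among the genes of serine and one-carbon synthesis, Shmt2 stood apart. It encodes the mitochondrial enzyme that splits serine into glycine and a one-carbon unit. Its level was 10.14 and 10.20 in wild-type, 10.20, 10.33 and 10.10 in heterozygous and 10.64, 10.52 and 11.26 in homozygous embryos. The homozygous embryos did not overlap the others, and the 5 others spread by only 0.08 (SD). Shmt2 was 1.53-fold higher (log2 difference 0.61, SE 0.16; limma adjusted p = 0.142), with 0.38 (SE 0.10; adjusted p = 0.204) without embryo 16. Mthfd2, the mitochondrial folate enzyme of the following step, was at 12.32 in embryo 16 and between 11.18 and 11.63 in the other 7. Psat1, the serine-pathway transaminase, was at 12.45 in embryo 16 and between 11.60 and 12.05 elsewhere. Both lost their positive difference without that embryo (Mthfd2 0.27 with and -0.06 without, Psat1 0.21 with and -0.06 without).

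Phgdh, the entry enzyme of serine synthesis, and Psph, its last enzyme, differed by -0.09 (SE 0.10) and 0.05 (SE 0.10). The second Phgdh probe was dimmer and read 8.56, 8.36 and 8.59 in homozygous embryos against 8.61 to 8.86 in the others. Its homozygous values lay below all others, whereas those of the brighter probe overlapped. The median of the 5 genes was 0.21, and -0.16 under median scaling, where Shmt2 alone was positive. The median of all probes there was -0.22, and 3 of the 5 genes lay above it.

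The 3 measured genes of other amino acid synthesis were all higher on average in homozygous embryos, with overlapping groups. Asns, which makes asparagine, read 10.76 and 10.30, then 10.55, 10.74 and 10.35, then 10.62, 10.65 and 11.72. Only embryo 16 exceeded the 5 others. The difference of 0.45 (SE 0.25; limma adjusted p = 0.342) was 0.09 (SE 0.15; adjusted p = 0.786) without it. Aldh18a1, the first enzyme of proline synthesis from glutamate, read 8.30 and 8.25, then 8.33, 7.98 and 8.198, then 8.85, 8.06 and 8.90. Embryos 2 and 16 were above all others and embryo 7 was within them (difference 0.39, SE 0.19; adjusted p = 0.290; 0.25 without embryo 16). Cth, which makes cysteine from cystathionine, read 7.81 and 7.43, then 7.75, 7.99 and 7.45, then 7.72, 7.89 and 8.38. Here too only embryo 16 exceeded the rest (difference 0.31, SE 0.18; adjusted p = 0.366; 0.12 without it).

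Of the amino acid transporters, only Slc3a2 was bright enough to test. It encodes the heavy chain that carries several light-chain transporters to the cell surface. Its level was 10.01 and 10.31 in wild-type, 10.20, 10.40 and 10.19 in heterozygous and 10.58, 10.30 and 11.06 in homozygous embryos. Embryo 7 lay among the 5 others, and embryos 2 and 16 above them. The difference was 0.43 (SE 0.17; limma adjusted p = 0.220), and 0.22 (SE 0.13; adjusted p = 0.438) without embryo 16. Slc7a5, its large neutral amino acid partner, was above background on 1 array and Slc7a1, the cationic transporter, on 2. Nupr1, a stress-induced chromatin factor, was above background on 3 arrays and its spot was marked in embryo 16. No level is drawn from these 3 probes.

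Of the 5 tRNA synthetases measured, Iars had the largest difference. It charges tRNA with isoleucine and read 10.79 and 10.84, then 10.96, 10.91 and 10.63, then 11.00, 11.02 and 11.28. The homozygous embryos lay just above the others. The difference was 0.27 (SE 0.11, limma adjusted p = 0.228), and 0.19 (SE 0.11) without embryo 16. It turned to -0.04 when arrays were scaled to their median and to -0.07 in the deposited table. The medians of all probes there were -0.22 and -0.25. Aars and Gars, which charge alanine and glycine tRNA and whose promoters hold the searched letters, differed by 0.05 (SE 0.11) and 0.02 (SE 0.11). For Gars the 95% confidence interval ran from -0.23 to 0.27. Wars, for tryptophan, differed by -0.22 (SE 0.16; adjusted p = 0.452), with embryo 16 the lowest at 8.04, and by -0.03 (SE 0.13) without that embryo.

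Nars, for asparagine, read 11.40 and 11.32, then 11.25, 11.496 and 11.35, then 10.92, 11.11 and 11.63. Homozygous embryos 2 and 7 were the lowest of all 8 and embryo 16 the highest. The difference was -0.14 (SE 0.15; limma adjusted p = 0.618), and -0.35 (SE 0.10; adjusted p = 0.237) without embryo 16. The median of the 5 synthetases was 0.02, and -0.35 under median scaling, where all 5 were negative. The median of all probes there was -0.22, and 1 of the 5 lay above it.

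**Figure D3:**
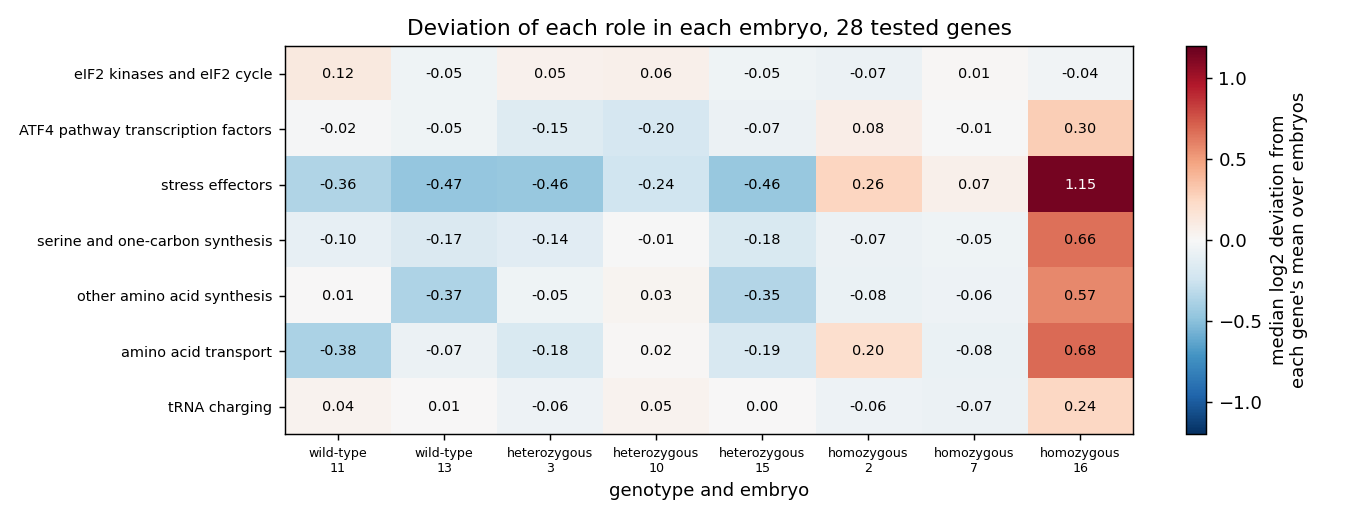
Each cell gives the median, over the tested genes of a role, of the log2 deviation from each gene's mean over the embryos, by embryo and genotype. Stress effectors are at 0.26, 0.07 and 1.15 in homozygous embryos 2, 7 and 16 and run from -0.47 to -0.24 elsewhere. They include Chac1, which passed the filter on dim probes only through the homozygous arrays. Amino acid transport is Slc3a2 alone.

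Seen by embryo, the roles split. The median deviation of the stress effectors was positive in all 3 homozygous embryos, though only 0.07 in embryo 7, and negative in the 5 others. This role includes Chac1, which passed the filter on dim probes only through the homozygous arrays, so the filter favoured that split. For serine and one-carbon synthesis embryo 16 was at 0.66, while embryos 2 and 7 were at -0.07 and -0.05, within the range of the others (-0.18 to -0.01). The tRNA charging genes were at 0.24 in embryo 16 and at -0.06 and -0.07 in the other homozygous embryos, and the eIF2 cycle was at -0.07, 0.01 and -0.04 in embryos 2, 7 and 16. The median deviation of all tested probes in embryo 16 was -0.11. The 6 genes whose homozygous embryos lay above every other embryo were Atf4, Ddit3, Chac1, Vldlr, Shmt2 and Iars, 6 of the 28 tested against 4.96% of all tested probes. Chac1 passed the filter on dim probes only through the homozygous arrays, so the filter favoured its place among them. Of the 28, 0 lay below every other embryo (9.69% of probes). Without embryo 16 the count above every other embryo was 6 of the 31 measured genes, against 9.47% of tested probes. Without embryo 7 it was 12 of the 31, against 9.29%.

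Against wild-type embryos alone, 0 of the 28 genes passed the adjusted threshold, as 0.0342% of probes did. At an unadjusted p under 0.05, 4 genes were higher (Chac1, Vldlr, Sesn2 and Shmt2; 5.93% of probes) and 0 lower (9.36%). Chac1 was at least 4.09-fold higher than in wild-type embryos, Vldlr differed by 1.15 (SE 0.41), Sesn2 by 0.82 (SE 0.29) and Shmt2 by 0.64 (SE 0.22), with limma adjusted p-values of 0.263 to 0.280. Without embryo 16 the same 4 were higher (6.98% of probes), Ppp1r15a and Nars were lower (8.21%), and 0 passed the adjusted threshold (0.0893%). Against heterozygous embryos 0 genes passed (0.0214% of probes), and 8 were higher at an unadjusted p under 0.05 (those 4 with Ddit3, Ddit4, Cebpb and Atf5; 3.78% of probes) and 0 lower (7.85%). In that comparison Chac1 was at least 3.90-fold higher, and Cebpb, with the smallest adjusted p of 0.368, differed by 0.59 (SE 0.16). Without embryo 16, Chac1, Vldlr, Shmt2 and Cebpb were higher (4.13% of probes), Nars was lower (6.25%), and 0 passed (0.0383%). These comparisons share the homozygous arrays and are not independent. Each count of higher genes includes Chac1, which passed the filter on dim probes only through those arrays.

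Between heterozygous and wild-type embryos the differences had no common direction. For this comparison 0 of 28 genes passed (0% of probes, limma), and 13 of 28 had a positive difference. Atf3 alone had an unadjusted p under 0.05, among 1.26% of probes higher and 1.04% lower at that level. It was higher in heterozygous embryos by 0.53 (SE 0.20; limma adjusted p = 0.9999), each heterozygous value (5.98, 6.15 and 5.77) lying above both wild-type values (5.73 and 5.15). For Vldlr and Shmt2 the differences were -0.01 (SE 0.41) and 0.04 (SE 0.22), and Chac1 was at background in both genotypes. The means of 9 of the 28 tested genes (32.1%) ordered wild-type, heterozygous, homozygous upward, against 20.1% of all tested probes, and those of 3 (10.7%) downward, against 31.6%. These orders also depend on the difference of homozygous from the other embryos. It was positive for 21 of the 28 genes and for 9310 of the 23389 tested probes.

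Related lists place the set in its pathway. Of 22 other ATF4 targets measured, 20 were tested and 0 passed (limma). At an unadjusted p under 0.05, 3 were higher and 1 lower, against 6.63% and 13.4% of all probes. Slc7a3, a cationic amino acid transporter, read 8.59 in embryo 16, against 5.91 and 6.28 in embryos 2 and 7 and 5.18 to 5.61 elsewhere (difference 1.54, SE 0.52; adjusted p = 0.185). Eif4ebp1, which holds back cap-dependent translation, differed by 0.65 (SE 0.26; adjusted p = 0.224), with no value in embryo 2. Aldh1l2, a mitochondrial folate enzyme, differed by -0.47 (SE 0.12; adjusted p = 0.139). Without embryo 16 these differences were 0.74, 0.24 and -0.65, that of Eif4ebp1 from homozygous embryo 7 alone. The median of the list was 0.11, against -0.06 for all probes, and -0.0048 in the deposited table, against -0.25.

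The 16 other cytosolic tRNA synthetases (median -0.04), the 13 mitochondrial synthetases (-0.0058), the 13 other genes of the eIF2 cycle (-0.03) and the 9 other serine, glycine and folate enzymes (-0.19, 7 of them tested) also held 0 genes past the adjusted threshold. At an unadjusted p under 0.05 they held 1 higher gene and 2 lower ones in all, against 6.63% and 13.4% of all probes. Under median scaling their medians were -0.31, -0.23, -0.37 and -0.39, against -0.22 for all probes. In the same order, 6 of 16, 5 of 13, 3 of 13 and 3 of 9 genes lay above that. Ppp1r15b, the constitutive partner of the eIF2 phosphatase, was the higher one (difference 0.30, SE 0.12; limma adjusted p = 0.221). Hars, for histidine tRNA, and Tyms, thymidylate synthase, were the lower ones, by -0.27 (SE 0.11; adjusted p = 0.231) and -0.21 (SE 0.08; adjusted p = 0.220).

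Genes of the other arms of the endoplasmic reticulum stress response, run by ATF6 and XBP1, had a median of -0.09, with 3 of 18 positive. The median of all tested probes was -0.06, and 9 of the 18 lay above it. Without embryo 16 the list's median was -0.04. The chaperones Hyou1 and Calr and the folding factor Creld2 differed by -0.44 (SE 0.16), -0.39 (SE 0.15) and -0.34 (SE 0.13), and Sel1l, of the degradation machinery, by 0.40 (SE 0.10). Their limma adjusted p-values lay between 0.139 and 0.214, so 0 of 18 passed. At an unadjusted p under 0.05, 1 of the 18 was higher and 3 were lower, against 6.63% and 13.4% of all probes. Without embryo 16 these counts were 1 and 0, against 6.25% and 9.35%. Under median scaling the list's median was -0.41, against -0.22 for all probes, and 3 of the 18 lay above that.

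Genes of the hypoxia response had the largest median difference of the 7 related lists. Of 19 measured, 18 had a positive difference (14 in the deposited table), with a median of 0.56, and 0.34 without embryo 16. Of 18 tested, 13 were higher at an unadjusted p under 0.05 (6.63% of all probes) and 0 passed the adjusted threshold (limma). Vegfa, the vessel growth factor, differed by 1.57 (SE 0.22; adjusted p = 0.0574), and by 1.34 without embryo 16. The summed intensity of the list was 59391 to 75525 in homozygous and 45342 to 59095 in the other embryos, while 15 of 18 genes were highest in embryo 16. Vldlr, Ddit4 and Stc2 are known to answer to low oxygen too, and the part of hypoxia genes in their levels was not tested.

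**Figure D4:**
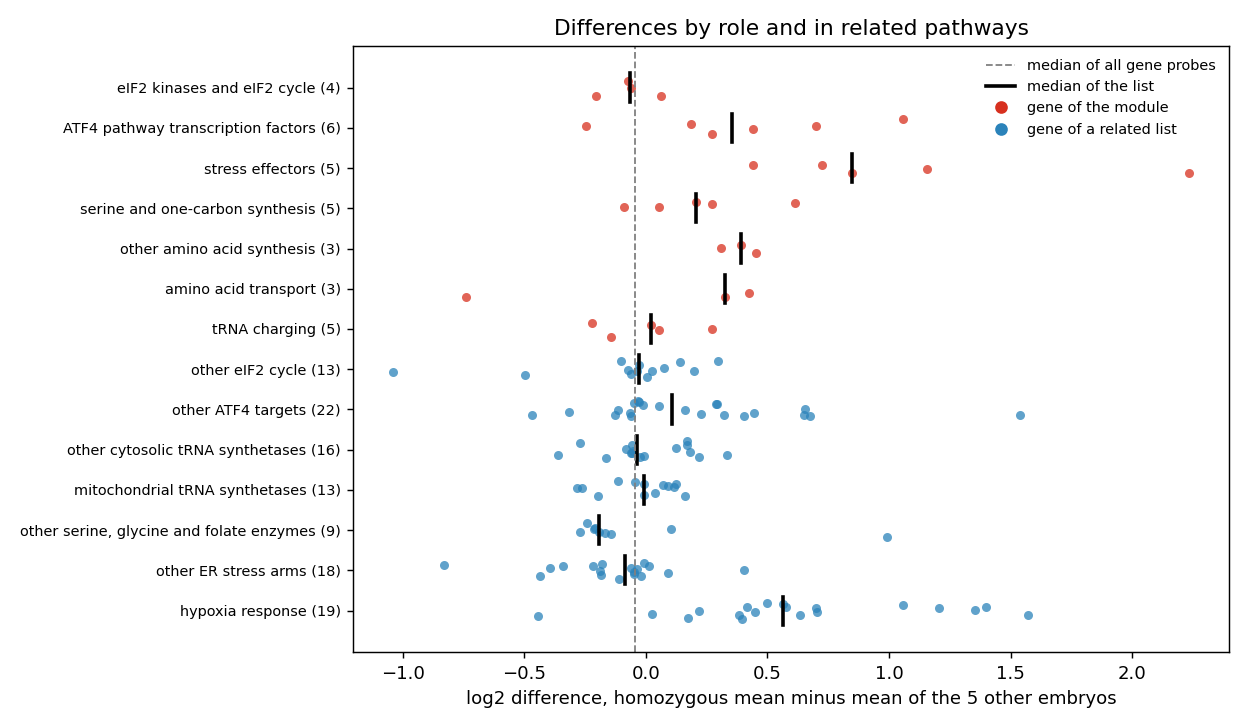
Homozygous minus other embryos, as log2 differences, are plotted for every measured gene of each role (red) and of related lists (blue), with the number of genes in brackets; the bar is the list's median and the dashed line the median of all gene probes. Medians run from -0.19 for other serine, glycine and folate enzymes to 0.85 for stress effectors; Chac1 and the probes near background (among them Slc7a5, Slc7a1 and Nupr1) are drawn at their measured values.

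Tissue markers also differed between homozygous and other embryos. All 7 macrophage, 9 liver and 10 neuron markers measured had negative differences (medians -1.37, -0.60 and -0.44), as did 5 of 6 skeletal muscle markers (-0.59). All 7 cardiomyocyte markers had positive ones (median 0.36; 5 of 7 under median scaling), as had 6 of 8 endothelial markers (0.22; 3 of 8 under median scaling, where 6 of 8 still lay above the median of all probes). Summed intensities of macrophage markers were 268 to 320 in homozygous and 201 to 934 in the other embryos. In the same order they were 3074 to 4077 and 4012 to 7609 for liver and 6334 to 7407 and 6079 to 10753 for neurons. For skeletal muscle they were 9698 to 11264 and 8119 to 10058, not lower in homozygous embryos although 5 of 6 markers were. The sums were 17929 to 19388 and 11568 to 19132 for cardiomyocytes, and 2799 to 3810 and 2703 to 2923 for endothelium. Of the trophoblast and decidua markers, 4 of 6 had positive differences (median 0.03), with sums of 680 to 974 and 668 to 910. Of the cardiomyocyte markers, 1 was above background on no array, and every marker of the other lists was above background on at least 1. Their part in the levels of the stress genes was not tested, and in whole embryos fewer cells of a type and less RNA per cell cannot be told apart.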

How the data were processed

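Each array was a one-colour CodeLink array of 1 embryo. Per the file headers and the values, the deposited intensity had the median of the local background already subtracted from the spot's mean. The authors' value table gives that intensity over a factor for each array (48.64 to 88.45), on a linear scale. The scanner software is not given in the sources used here. Control spots were dropped, and gene spots marked as contaminated, irregular or masked (206 to 1634 per array) were set missing.

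Intensities were quantile normalized with limma 3.58.1 in R 4.3.3, floored at the 5th percentile of positive values (intensity 4.50) and put on the log2 scale. A probe was tested if it exceeded background on each array of 1 genotype or more (23389 probes, 23388 of them in the main comparison), with lmFit and eBayes, two-sided. Benjamini-Hochberg adjustment ran over the whole table. The main comparison set 3 homozygous against 5 other embryos; a model of 3 genotype means gave the pairwise ones. The number of arrays limits the precision. The script was tested on simulated data.

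Probes were named by RefSeq accession through a gene list of GRCm38.p6: 14763 of 34967 gene probes had 1 symbol and 20204 none. Of several probes of a gene, the brightest on average was used. Values in every embryo are given for the 14 genes with the smallest unadjusted p in the main comparison, and for Atf3, Ppp1r15a and Nars, added after their values were seen. Up to 4 genes of each related list, those with the smallest p, could be named. The members, lists and tests were chosen with earlier results of these data known. Promoter sequences are RefSeq's. The alternatives were other scalings, floors, background correction, filters, weights, priors, a Y-linked covariate, all probes of a gene, the marked spots kept, fits of only the groups compared, and omission of single embryos.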

Additional observations from a re-analysis of the deposited data

Results flagged for a closer look

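Among the 31 measured genes, 2 had an embryo far from the rest of its group, judged over the 5 wild-type and heterozygous embryos by the gap to the nearest value as a share of the group's range. Such gaps arise by chance in about 1 in 20 groups. Eif2ak3 (PERK) was at 8.86 in heterozygous embryo 3, with the nearest embryo at 8.54 and a gap of 0.723 of the range. Psat1 was at 12.05 in heterozygous embryo 10, with the nearest embryo at 11.68 and a gap of 0.842 of the range.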

How the results depend on the processing

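No gene of the set passed the adjusted threshold under any alternative run. The set's median difference between homozygous and the 5 other embryos, over the 31 measured genes, was 0.27. It was -0.040 under median scaling, -0.073 in the deposited table, 0.0068 under median scaling of 7 arrays without embryo 16, and 0.092 to 0.33 with each embryo left out, lowest without embryo 16. Against wild-type it was 0.21, and 0.015, -0.020 and 0.020 under those 3 settings; against heterozygous it was 0.26, and -0.044, -0.077 and 0.029, with 0.085 to 0.33 when embryos were left out. All probes shifted too: their median was -0.06, and -0.22, -0.25 and -0.09 under those settings. The count of 9 genes higher at an unadjusted p under 0.05 was 5, 5 and 3, as the share of all probes went from 6.63% to 3.15%, 2.57% and 4.49%; it was 5 with array weights (7.81%), and 5 to 10 with an embryo left out (5 without embryo 16). The 6 genes without overlap became 3, 3 and 3 (from 4.96% of probes to 1.82%, 1.45% and 6.10%), and 6 to 12 with an embryo left out. The count was 6 without embryo 16 and 12 without embryo 7, against 9.47% and 9.29% of probes. Iars turned to -0.040 under median scaling and -0.073 in the table, Atf4 to -0.21, -0.24 and, without embryo 16, -0.14, and Asns to -0.035 under median scaling without embryo 16; the causes were not tested. Probes called among all genes ranged from 5 to 314 (314 without embryo 7) around 25. The counts of unadjusted and non-overlapping genes under alternatives, and median scaling without embryo 16, were added with the data in view. The files name no slide or scan batch that holds more than 1 array, so a batch block was not run. No paired analysis was possible because embryo numbers are not shared between genotypes.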
